A study of Mus musculus with 8 samples.

Results

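The 35 genes described here form the route from blood glucose to lactate and stored glycogen. They comprise the glucose transporters Slc2a1 and Slc2a3, the enzymes of glycolysis from Hk1 and Hk2 to Pkm, the lactate dehydrogenases Ldha and Ldhb, the pyruvate dehydrogenase subunit Pdha1 with its kinases Pdk1 to Pdk4, the monocarboxylate transporters Slc16a1, Slc16a3 and Slc16a7, and the glycogen genes Gys1, Gbe1, Pygb, Pygm, Ppp1r3c and Ppp1r3d. Members were chosen by gene name, and all 35 were found among the 26711 features of the count matrix. They held 2178390 of 1893856869 unique molecular identifiers (UMIs, each standing for one captured RNA molecule), or 0.115%. Levels are given as CPM, the UMIs of a gene per 1000000 UMIs of the same cell type in the same library.

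Glycolysis splits glucose into pyruvate, which either enters mitochondria through pyruvate dehydrogenase or is reduced to lactate. In the cerebral cortex glycogen is stored mainly in astrocytes, and the lactate shuttle model holds that astrocytes release lactate that neurons take up. Several steps are catalysed by alternative proteins from related genes, so that cell types can run the same reaction with different enzymes, for example aldolase A (Aldoa) or aldolase C (Aldoc) and neuronal enolase (Eno2) or the broadly expressed enolase (Eno1).

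The nuclei were taken on postnatal day 21 from mouse primary visual cortex (V1). All animals, controls included, carried floxed alleles of the glucocorticoid receptor gene Nr3c1 (GR fl/fl) and had received a viral vector at birth in which the astrocyte promoter fragment GfaABC1D drives EGFP tagged for the membrane. The vector was packaged as AAV2/5 and carried the 4x6T and WPRE elements. In GR-KO animals it also encoded Cre, joined to EGFP-CAAX by a self-cleaving peptide, and in GR-Con animals an inactive ΔCre stood in its place. Mice were reared normally (NR) or in constant darkness until collection (DR), giving 4 groups, each genotype under each rearing. Each group held 2 libraries, 1 from a male and 1 from a female, so that every p-value measures only the spread between those animals. A virus reaches a part of the astrocytes, and the study's methods give the sort gate as positive for the nuclear dye DRAQ5 and negative for GFP, so astrocytes of a GR-KO library need not all have lost the receptor.

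The matrix held 102330 nuclei in 20 deposited types, of which 15 had at least 10 nuclei in every library. Libraries held between 168632129 and 288774016 UMIs, with medians of 14861 to 29223 per nucleus, and 1220 barcodes occurred in more than 1 library. Astrocytes numbered 924 to 1794 per library at median depths of 4889 to 12123.5 UMIs, and the deepest were those of both NR GR-KO libraries. All 31 markers of the listed types were highest in the type they mark. The cell type labels came from clustering the same counts, so differences between types describe how consistent a pattern was over 8 libraries. Cre UMIs were 0 in astrocytes of all GR-Con libraries and 43 to 86 in the 4 GR-KO libraries. Nr3c1 stood at 207 to 263 CPM in GR-Con astrocytes and 268 to 284 CPM in GR-KO astrocytes, but counts from the 3′ end of a transcript need not show loss of a floxed exon and are no check of the deletion.

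Among the 15 types with enough nuclei in every library, most of the pathway was at its highest level in astrocytes, and peaks and next types are given within these 15 unless another type is named. Of the 35 members, 21 had their highest mean level in astrocytes and 4 in oligodendrocytes. Layer 6 intratelencephalic neurons (L6IT) held 2 peaks and 8 other neuronal types 1 each. These counts stand without the share of all genes that peak in each type, so they are not read as an excess. For Hk2, Pfkfb2, Aldoa, Tpi1, Gapdh, Pgk1, Pgam1, Ldha, Slc2a1 and Gys1 the astrocyte libraries overlapped those of the next type. In a fit with the library as a block, 20 of 35 members differed between astrocytes and excitatory neurons with an adjusted p under 0.05 and a difference of at least 2-fold, 15 of them higher in astrocytes and 5 lower (edgeR likelihood ratio test, Benjamini-Hochberg adjustment). Over all genes tested the same rule called 48.0%, with 21.1% higher and 26.9% lower in astrocytes. The median log2 difference was 0.69 over the members and -0.07 over all genes. Without scaling by trimmed means the median over all genes moved to 0.28 and the members split into 20 higher and 4 lower, while the calls over all genes went from 4068 higher and 5173 lower to 5246 higher and 4377 lower.

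**Figure D1:**
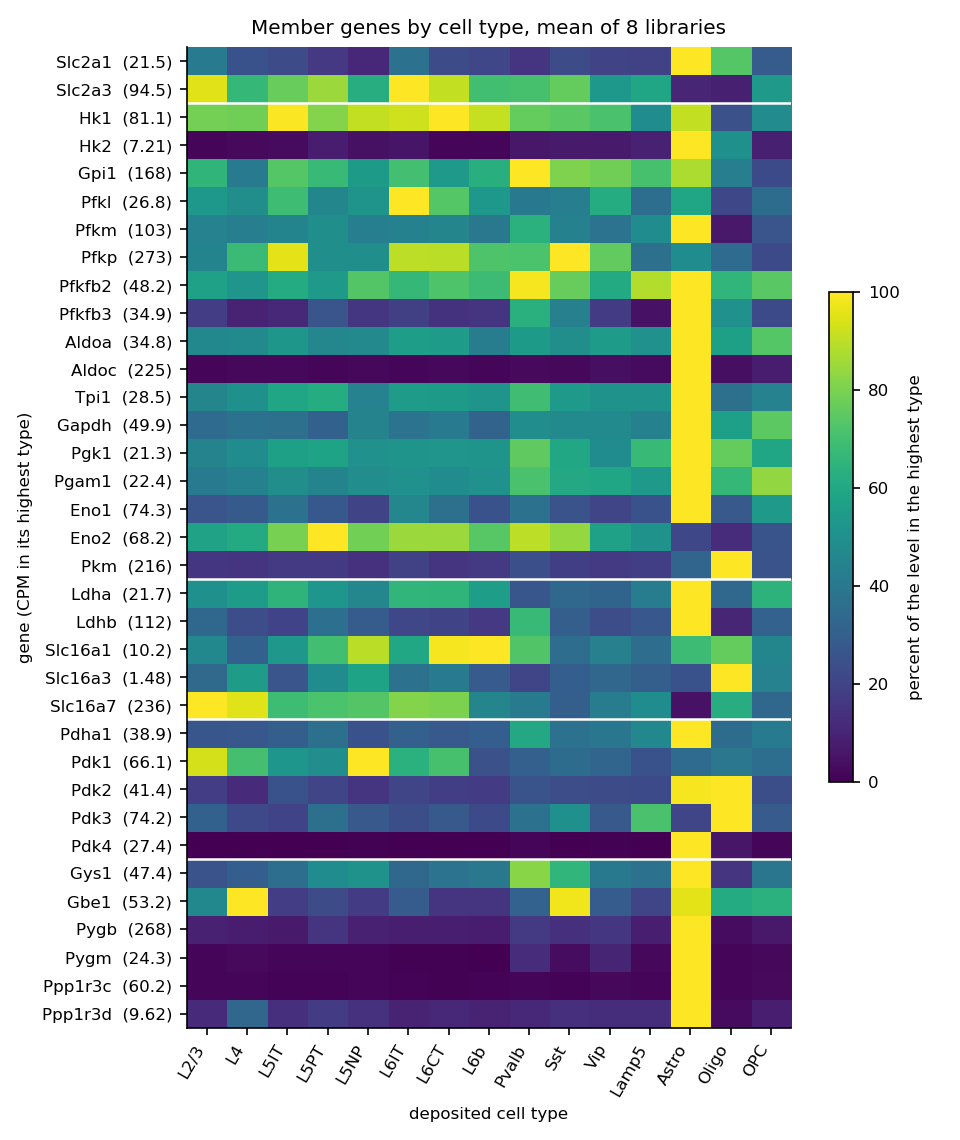
Mean level of each of the 35 members (rows) in the 15 cell types with at least 10 nuclei in every library (columns), drawn as a percent of the level in the member's highest type, whose CPM stands in brackets beside the gene name. The astrocyte column holds the highest value for 21 members, while Eno2, Slc2a3, Slc16a3, Slc16a7 and Pdk3 are lowest or next to lowest there.

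Among the glycogen members, Ppp1r3c, Pygm, Pygb and Ppp1r3d were at least 3.03-fold higher in astrocytes than in any of the other 14 types. Ppp1r3c, a targeting subunit that brings a phosphatase to glycogen, was at 60.2 ± 5.09 CPM in astrocytes (SD, n = 8 libraries), 41.1-fold above the next type, oligodendrocyte progenitor cells (OPC), at 1.47 CPM. Pygm, named muscle glycogen phosphorylase, was at 24.3 ± 12.7 CPM against 3.11 CPM in Pvalb interneurons, a 7.81-fold gap. Pygb, the brain form of the same glycogen-breaking enzyme, was at 268 ± 13.6 CPM against 45.6 CPM in Pvalb interneurons, a 5.87-fold gap. The related subunit Ppp1r3d stood at 9.62 ± 2.37 CPM, 3.03-fold above L4 neurons. In contrast, the synthase Gys1 at 47.4 ± 6.24 CPM lay close to Pvalb interneurons at 39.0 ± 3.43 CPM with overlapping libraries, and the branching enzyme Gbe1 was highest in L4 neurons at 53.2 ± 14.0 CPM, next to Sst interneurons at 52.2 and astrocytes at 51.0 CPM, an order that does not separate them beyond their spread. Gys1 was nonetheless higher in astrocytes than in excitatory neurons (log2 1.28, SE 0.09) and oligodendrocytes (2.62, SE 0.10).

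Among genes of glucose entry and the first committed steps, the isoforms divided between cell classes. Slc2a1, the GLUT1 transporter of barrier endothelium and glia, was at 21.5 ± 2.52 CPM in astrocytes and 6.56 ± 1.26 CPM in excitatory neurons. The fitted difference was 1.39 (log2, SE 0.12). Slc2a3, the neuronal transporter GLUT3, ran the other way with 10.3 ± 1.94 CPM in astrocytes and 80.6 ± 13.3 CPM in excitatory neurons (log2 -3.30, SE 0.13). Hk1, which commits glucose to the cell by phosphorylation, was similar in both classes at 73.8 ± 7.51 and 68.9 ± 7.77 CPM. In the fit it was lower in astrocytes (log2 -0.24, SE 0.09), below the 2-fold cut. Fitted differences are scaled by trimmed means and CPM are not, so the 2 need not match. Hk2, the second hexokinase, reached 7.21 ± 4.15 CPM in astrocytes against 0.208 ± 0.0518 CPM in excitatory neurons, while its next type, oligodendrocytes, overlapped astrocytes at 3.61 ± 0.747 CPM. Pfkm, a phosphofructokinase subunit, was highest in astrocytes at 103 ± 19.4 CPM, whereas Pfkp, the platelet-type subunit, was highest in Sst interneurons at 273 ± 24.5 CPM and L5IT neurons at 262 ± 6.93 CPM. Pfkfb3, which makes the main activator of phosphofructokinase, was 2.36 (log2, SE 0.17) higher in astrocytes than in excitatory neurons.

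Aldoc was the lower-glycolysis gene that set astrocytes apart most, at 225 ± 93.9 CPM against 17.3 CPM in OPC, a 13-fold gap. Aldoa, Tpi1, Gapdh, Pgk1, Pgam1 and Eno1 carry out the steps from aldolase to enolase. Their means were also highest in astrocytes among the 15 types, from 21.3 to 74.3 CPM. For all of these but Eno1, however, the astrocyte libraries overlapped those of the next type. Eno2 instead peaked in L5PT neurons at 68.2 ± 3.68 CPM and was at 14.9 ± 4.05 CPM in astrocytes. Pkm, the pyruvate kinase at the end of the pathway, was highest in oligodendrocytes at 216 ± 14.1 CPM, 3.07-fold above astrocytes at 70.4 ± 5.03 CPM. Several of these genes have processed copies elsewhere in the genome that can share reads with them, so that the counts of Gapdh, Aldoa, Tpi1, Pgk1, Pgam1, Eno1, Pkm and Ldha are uncertain to that degree.

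At the lactate and pyruvate branch, the kinases of pyruvate dehydrogenase were highest in different types. Pdk4, which switches pyruvate dehydrogenase off, was at 27.4 ± 8.36 CPM in astrocytes and at 1.62 CPM in oligodendrocytes, a 16.9-fold gap, and was nearly absent from excitatory neurons at 0.0605 ± 0.027 CPM. Pdk1 instead peaked in L5NP neurons at 66.1 ± 6.27 CPM and L2/3 neurons at 62.0 ± 18.4 CPM, which overlapped, with 23.1 ± 4.73 CPM in astrocytes. Pdk2 was shared by oligodendrocytes at 41.4 ± 5.19 CPM and astrocytes at 40.9 ± 6.05 CPM, and Pdk3 peaked in oligodendrocytes at 74.2 ± 10.7 CPM. Ldhb, the isoform of heart-type lactate dehydrogenase, was at 112 ± 4.45 CPM in astrocytes and 75.9 ± 7.62 CPM in Pvalb interneurons, and Ldha, the muscle type, at 21.7 ± 6.03 CPM in astrocytes. Slc16a7, the neuronal lactate transporter MCT2, had its lowest level of the 15 types in astrocytes at 11.7 ± 2.8 CPM and its highest in L2/3 and L4 neurons at 236 ± 16.5 and 224 ± 10.8 CPM. It was not confined to neurons here, being 3.80 (log2, SE 0.12) higher in oligodendrocytes than in astrocytes. In microglia, outside the 15 types, Slc16a7 was at 173 ± 18.7 CPM. Ldhb was at 110 ± 7.43 CPM there, close to its level in astrocytes. Slc16a1, the transporter MCT1, differed little between astrocytes at 7.0 ± 1.09 CPM and excitatory neurons at 5.68 ± 1.28 CPM. Slc16a3, the transporter MCT4, did not exceed a mean of 1.48 CPM in any of the 15 types.

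The 5 types outside the 15, with too few nuclei in at least 1 library, changed the place of the peak for several members. Including libraries with at least 10 nuclei of such a type, 11 of the 35 members had a higher mean there than in any of the 15 types, and 14 rather than 21 were highest in astrocytes. In endothelial cells Slc2a1 reached 529 ± 73.6 CPM, Slc16a1 155 ± 61.1 CPM, Gbe1 159 ± 30.1 CPM and Ldha 34.5 ± 13.7 CPM over 7 libraries and 394 nuclei. In microglia Hk2 reached 210 ± 20.8 CPM and Pfkfb3 93.6 ± 18.6 CPM over 5 libraries and 3854 nuclei, and Slc16a3 was at 5.06 ± 1.25 CPM. Gapdh, Aldoa and Pgam1 were also higher in microglia, at 63.8 ± 21.1, 41.4 ± 15.6 and 35.1 ± 10.3 CPM, than in astrocytes, at 49.9 ± 13.2, 34.8 ± 7.58 and 22.4 ± 5.53 CPM, with differences within the spread for Gapdh and Aldoa. Pdk1 was highest in vascular leptomeningeal cells (VLMC) at 161 ± 51.1 CPM over 7 libraries and in microglia at 141 ± 16.5 CPM. The glycogen genes with the widest gaps had lower means in these types than in astrocytes, with Ppp1r3c at 5.89 CPM in VLMC, 10.2-fold below astrocytes, Pygb at 86.2 CPM in VLMC and Pygm at 14.6 ± 14.0 CPM in SMC-Peri cells of vessel walls. The male NR GR-Con, male NR GR-KO and female DR GR-Con libraries held only 2 to 4 microglial nuclei each and were left out of that type.

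The balance between related enzymes differed between astrocytes and excitatory neurons in every library. The gene of the pair with more UMIs changed for Aldoc and Aldoa, Eno1 and Eno2, and Slc2a1 and Slc2a3, and was the same in the mean of both classes for the other pairs. The Aldoc to Aldoa log2 ratio was 2.61 in astrocytes and -2.06 in excitatory neurons, a difference of 4.67 ± 0.53 (SD, n = 8 libraries). The difference was 4.87 ± 0.78 for Hk2 over Hk1, 4.70 ± 0.31 for Slc2a1 over Slc2a3 and 4.52 ± 0.44 for Slc16a1 over Slc16a7. It was 3.40 ± 0.36 for Eno1 over Eno2, 2.30 ± 0.81 for Pygm over Pygb, 1.6 ± 0.30 for Pfkm over Pfkp and 1.1 ± 0.37 for Ldhb over Ldha. All 8 ratios were higher in astrocytes in 8 of 8 libraries, and each gave p = 0.0078125, also after Benjamini-Hochberg adjustment over the 8 ratios, in a two-sided exact sign-flip permutation test for which that is the smallest possible value. Reads of these nuclei come from the 3′ end of transcripts, so a ratio of 2 genes within a class compares UMIs that transcript length and structure can shift, and it was not read as a ratio of proteins. The tests compared its difference between classes. The pairs, like the other lists, were chosen with earlier results of these data known. That all 8 ratios share a direction is therefore not read as a result.

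**Figure D2:**
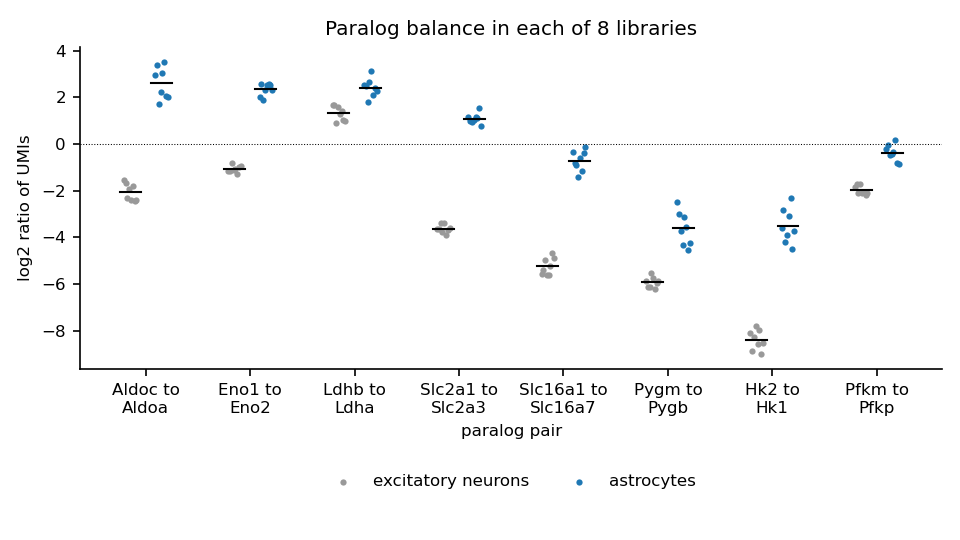
Log2 ratio of the UMIs of 8 pairs of related genes (x axis) in astrocytes and in excitatory neurons, 1 point per library and class, with a bar at each mean. In each pair the 8 astrocyte points lie above the excitatory neuron point of the same library, from 1.1 higher on average for Ldhb over Ldha to 4.87 for Hk2 over Hk1.

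Astrocytes were also compared with other classes. Against inhibitory neurons, 17 of 34 members tested passed, 13 higher and 4 lower in astrocytes, where all genes gave 41.1%. Here Ldha also passed, at 1.52 (log2, SE 0.11), as did Pdk3 at -1.17 (SE 0.07). Against oligodendrocytes, 18 of 34 passed, 15 higher and 3 lower, with 35.0% of all genes called, and the lower members were Slc16a7 (log2 -3.80), Pdk3 (-2.38) and Pkm (-1.74). Slc2a1 (0.32), Slc2a3 (0.17) and Eno2 (0.66) were not among the calls against oligodendrocytes. Between Pvalb interneurons, which fire at high rates, and other inhibitory neurons, 3 of 31 members passed, all higher in Pvalb interneurons, against 13.2% of all genes. These were Ldhb (log2 1.28, SE 0.04), Pfkfb3 (1.15, SE 0.06) and Pygm (1.12, SE 0.17).

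A list of 94 other genes of the same and neighbouring pathways was read alongside. Against excitatory neurons, 26 of its 84 tested genes were higher in astrocytes and 14 lower, beside the 21.1% higher and 26.9% lower of all genes. The 20 tested glycogen genes gave 8 higher and 2 lower, among them the phosphorylase kinase subunits Phkg1 (log2 7.49, SE 0.13) and Phka1 (5.71, SE 0.11) and the targeting subunit Ppp1r3g (6.85, SE 0.20). The lower ones were Pgm2l1, a phosphoglucomutase relative, and Phka2, the liver form of the kinase subunit. All 8 genes of the citrate cycle that passed, of 20 tested, were higher in astrocytes. Hexose entry and glycolysis gave 5 higher and 7 lower of 17, including the insulin-responsive transporter Slc2a4, which was 6.65 (log2, SE 0.37) higher in astrocytes.

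The first comparison of the design asks what changed in astrocytes of GR-KO animals. Aldoc and Pygm were lower and Pdk4 was higher, each over all 8 libraries, and Hk2 and Pdk1 were called with less margin. Under normal rearing 4 of 34 members tested were called, all lower in GR-KO (Slc16a3 was too rare to test), against 7.11% of all genes in either direction and 3.37% lower. The median log2 difference was -0.07 over the members and 0.00 over all genes. Depth followed genotype in NR astrocytes, with medians of 8662 and 12123.5 UMIs in GR-KO and 6267 and 5586.5 in GR-Con. Its part in these calls was not tested. In 1 fit of the 8 libraries that also held a rearing term, 5 of 34 were called, 3 lower and 2 higher, where 4.79% of all genes were.

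The promoters of the 4 called members with the largest genotype differences over all libraries are shown because the perturbed gene encodes a DNA-binding receptor. They are RefSeq sequences of build GRCm38.p6 from up to 250 bases before the transcription start, limited to bases outside the gene's annotated transcripts. Each is written 5′ to 3′ on the gene's strand, and capitals mark the letters ACGTG or their reverse complement, the core of the hypoxia response element. Aldoc lies on chr11:78322823-78322967 (plus strand), Pygm on chr19:6384158-6384398 (plus), Hk2 on chr6:82774455-82774704 (minus) and Pdk4 on chr6:5496310-5496528 (minus).
Aldoc: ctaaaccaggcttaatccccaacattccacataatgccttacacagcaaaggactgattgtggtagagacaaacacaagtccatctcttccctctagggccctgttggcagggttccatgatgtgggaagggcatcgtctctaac
Pygm: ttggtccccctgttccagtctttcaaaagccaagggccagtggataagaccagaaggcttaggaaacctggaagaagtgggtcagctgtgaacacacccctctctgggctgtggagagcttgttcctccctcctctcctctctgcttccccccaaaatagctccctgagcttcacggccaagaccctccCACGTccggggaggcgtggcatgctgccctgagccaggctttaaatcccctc
Hk2: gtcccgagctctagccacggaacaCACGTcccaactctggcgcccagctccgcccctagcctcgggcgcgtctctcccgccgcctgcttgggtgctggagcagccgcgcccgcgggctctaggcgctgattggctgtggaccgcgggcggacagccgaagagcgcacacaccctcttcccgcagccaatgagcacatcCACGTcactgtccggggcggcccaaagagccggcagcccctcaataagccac
Pdk4: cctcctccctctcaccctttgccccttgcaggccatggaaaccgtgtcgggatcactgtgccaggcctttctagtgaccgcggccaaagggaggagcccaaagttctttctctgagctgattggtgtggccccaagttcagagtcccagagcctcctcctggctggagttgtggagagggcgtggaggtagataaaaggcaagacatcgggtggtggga

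None of these 4 held AGAACA, the letters bound by one subunit of the glucocorticoid receptor, on either strand of the 250 bases searched. Over the 33 members with a RefSeq promoter, 8 held AGAACA (Hk1, Pfkm, Pfkfb2, Aldoa, Tpi1, Gapdh, Pdk1 and Slc16a3). This was 24.2%, beside 18.2% of all genes. Counted by promoter and not by gene, 16.1% of all 32851 promoters held it. The full palindrome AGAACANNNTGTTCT stood in 3 of all promoters and in no member. ACGTG stood in 18 of the 33 members, or 54.5%, and in 18.5% of all genes. A gene was counted if any of its promoters held the letters, and several members, such as Pfkm, have more than 1 promoter. The number of promoters per gene was not matched, so the shares of members and of all genes are not strictly alike. A match is only a run of letters, and a window without one says nothing of binding elsewhere.

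Aldoc (ENSMUSG00000017390.15, at chr11:78322968-78327781 on the plus strand) had 302 and 319.8 CPM in the male and female NR GR-Con libraries, 163 and 187 in NR GR-KO, 212 and 369 in DR GR-Con, and 124 and 123 in DR GR-KO. All 4 GR-KO libraries lay below all 4 GR-Con libraries. The log2 difference was -0.89 in NR (SE 0.16, adjusted p = 1.2e-06), -1.2 in DR (SE 0.28, adjusted p = 0.0052) and -1.05 over all libraries (SE 0.17, adjusted p = 1.3e-07) in the edgeR likelihood ratio test. In NR the call held whichever library was left out. In DR it was lost without either GR-KO library, and the quasi-likelihood F-test gave an adjusted p of 0.33.

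Pygm (ENSMUSG00000032648.14, at chr19:6384399-6398459 on the plus strand) had 48.6 and 32.3 CPM in NR GR-Con, 19.9 and 12.9 in NR GR-KO, 32.8 and 20.9 in DR GR-Con, and 12.1 and 14.6 in DR GR-KO, in the order male and female. Every GR-KO value was below every GR-Con value. The log2 difference was -1.37 in NR (SE 0.26, edgeR adjusted p = 6.7e-06, called without any 1 library) and -1.19 over all libraries (SE 0.22, adjusted p = 1.1e-05). In DR it was -0.99 (SE 0.32) and not called, with an adjusted p of 0.17 from edgeR. Its brain paralog Pygb lay between 244 and 284 CPM in all 8 libraries with mixed groups.

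Pdk4 (ENSMUSG00000019577.6) moved the other way, with 26.6 and 20.5 CPM in NR GR-Con, 37.3 and 31.0 in NR GR-KO, 19.8 and 14.7 in DR GR-Con, and 34.0 and 35.5 in DR GR-KO. The GR-KO libraries were all higher than the GR-Con libraries. The difference was 0.74 over all libraries (log2, edgeR adjusted p = 0.0011, called without any 1 library) and 1.03 in DR (adjusted p = 0.017), the latter not called by the quasi-likelihood test or by DESeq2 (adjusted p = 0.33 and 0.098). In NR it was 0.47 with an adjusted p of 0.13.

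Hk2 (ENSMUSG00000000628.10) was scarce, with 6.30 and 10.2 CPM in NR GR-Con, 4.27 and 5.70 in NR GR-KO, 7.54 and 15.9 in DR GR-Con, and 2.93 and 4.87 in DR GR-KO. The 4 GR-KO values were the lowest. Over all libraries the log2 difference was -1.14 (SE 0.32, edgeR adjusted p = 0.0098), called in 4 of 8 fits that each left out 1 library and not by the quasi-likelihood test (adjusted p = 0.092). It was -0.77 in NR and -1.53 in DR, neither called (edgeR adjusted p = 0.14 and 0.13). Pdk1 had 18.6 and 18.7 CPM in NR GR-Con, 28.7 and 23.9 in NR GR-KO, 21.1 and 17.8 in DR GR-Con, and 29.7 and 26.3 in DR GR-KO, again without overlap between genotypes. Its log2 difference was 0.48 over all libraries (edgeR adjusted p = 0.012) and was called in 3 of 8 such fits, but in neither NR (0.43, adjusted p = 0.16) nor DR (0.54, adjusted p = 0.64).

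**Figure D3:**
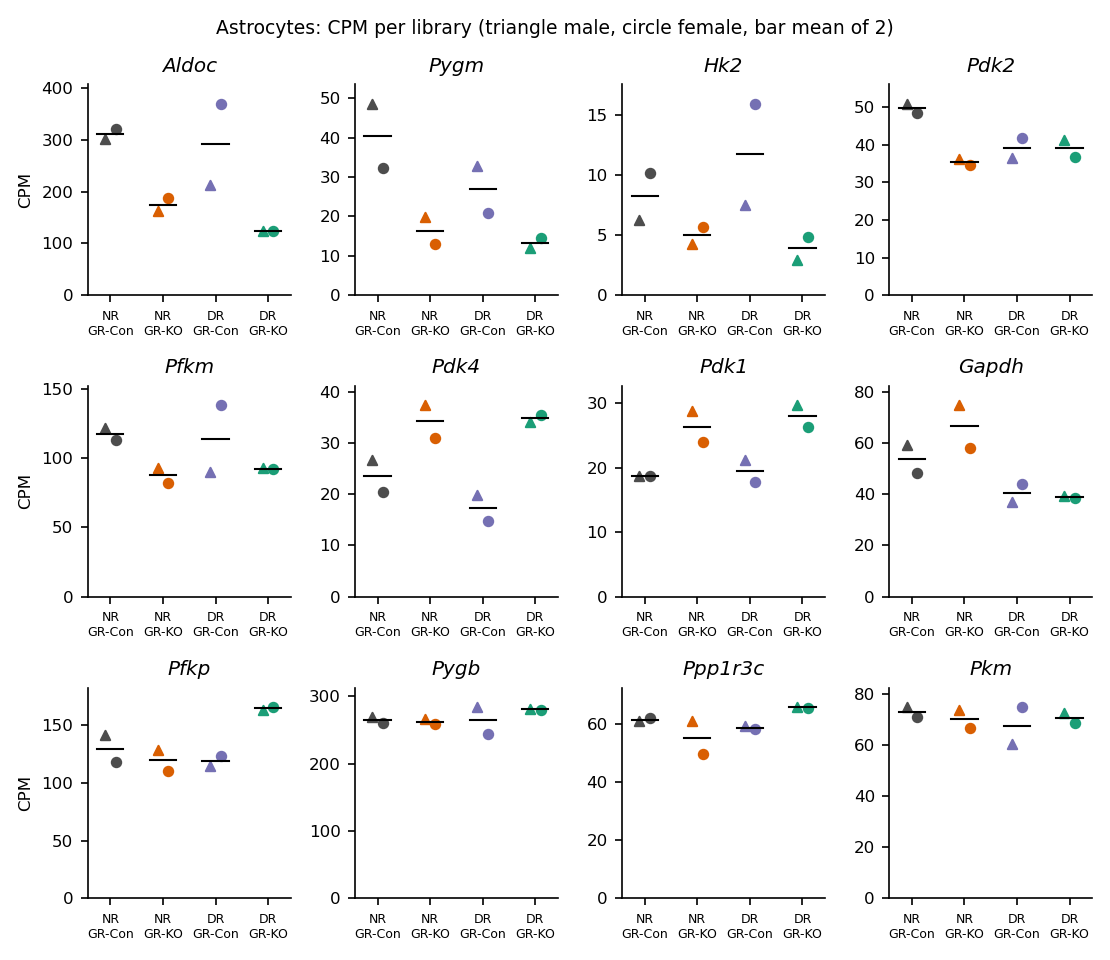
CPM in astrocytes of 12 members, 1 point per library (triangle male, circle female), with the 4 groups along the x axis and a bar at the mean of the 2 libraries. Aldoc, Pygm and Hk2 lie lower and Pdk4 and Pdk1 higher in both GR-KO groups than in either GR-Con group.

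The other members called under normal rearing, Pdk2 and Pfkm, rested on more fragile evidence. The quasi-likelihood test and DESeq2 did call Pdk2 (adjusted p = 0.017 and 0.040) and Pfkm (0.025 and 0.017). In 1 fit of all 8 libraries Pdk2 was called and Pfkm was not (edgeR adjusted p = 0.017 and 0.21). Pdk2, a kinase of pyruvate dehydrogenase, had 50.9 and 48.5 CPM in NR GR-Con, 36.3 and 34.7 in NR GR-KO, 36.5 and 41.7 in DR GR-Con, and 41.4 and 36.7 in DR GR-KO. The genotypes separated in NR only, with a log2 difference of -0.55 (SE 0.14, edgeR adjusted p = 0.0019). Pfkm had 122 and 113 CPM in NR GR-Con, 93.1 and 82.1 in NR GR-KO, 89.7 and 138 in DR GR-Con, and 92.6 and 92.3 in DR GR-KO, with a log2 difference of -0.49 in NR (SE 0.14, adjusted p = 0.012). Both were called in 1 of 4 fits that left out a library.

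Neuronal transcripts moved with genotype in NR astrocytes. The share of neuronal marker UMIs was 0.111% and 0.0948% in the NR GR-Con libraries and 0.177% and 0.201% in NR GR-KO, and 12 of 12 neuronal markers had a higher mean there, with none at 0 in any library. In DR it was 0.109% and 0.167% in GR-Con and 0.112% and 0.119% in GR-KO. With only nuclei low in neuronal RNA, of which 186 to 1085 remained per library, the neuronal share was 0.0669% and 0.0605% in NR GR-Con and 0.0847% and 0.0899% in NR GR-KO, so that it still differed between genotypes. In these nuclei the NR difference was -0.85 for Aldoc (edgeR adjusted p = 1.3e-04) and -1.61 for Pygm (adjusted p = 1.3e-08), and over all libraries Pdk4 was at 0.70 (adjusted p = 7.3e-04). In the same nuclei Pdk2 was at -0.46 and Pfkm at -0.39, close to their values in all nuclei but no longer called (edgeR adjusted p = 0.11 and 0.18).

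Of the 94 related genes, 80 were tested in NR astrocytes and 7 were lower in GR-KO, with none higher, beside the 3.37% of all genes called lower. Idh2, the mitochondrial isocitrate dehydrogenase, was at -0.99 (log2, SE 0.14, edgeR adjusted p = 9.1e-10) and Gpd1, the cytosolic enzyme of the glycerol phosphate shuttle, at -1.25 (SE 0.19, adjusted p = 1.9e-08). The glycogen genes Phka1 (-0.61), Ppp1r3g (-0.51) and Pgm1 (-0.45), pyruvate carboxylase Pcx (-0.56) and Slc2a4 (-1.85) were the others. Over all libraries, where 4.79% of all genes were called, 7 were lower and 1 was higher, the higher one being Ugp2 (0.41), which makes the sugar donor for glycogen.

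In dark-reared astrocytes 2 of 34 members were called between genotypes (Aldoc and Pdk4), against 0.736% of all genes. The interaction, the genotype effect in NR less the one in DR, was called for 0 of 34 members by edgeR, where 0.386% of all genes were called. The quasi-likelihood test and DESeq2 called 0. At an unadjusted p under 0.05 edgeR gave 3 (Pfkp, Pfkl and Pdk2), a count without the share of all genes at that cut. A difference between the rearing conditions in the genotype effect was thus not detected for any member in astrocytes at 2 libraries per group.

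Dark rearing changed few members in astrocytes. In GR-Con animals 0 of 34 were called by edgeR (0 at an unadjusted p under 0.05, and 0 by the quasi-likelihood test or DESeq2), against 0.147% of all genes. In GR-KO animals 3 of 34 were called, where 2.85% of all genes were, and over all libraries 1 of 34, with 0.935% of all genes. Astrocytes of GR-KO animals had medians of 8662 and 12123.5 UMIs in NR and 4889 and 5227 in DR. The part of this difference was not tested. Gapdh, which oxidises the triose made by aldolase, had 59.0 and 48.2 CPM in NR GR-Con, 74.7 and 58.2 in NR GR-KO, 37.0 and 44.0 in DR GR-Con, and 39.2 and 38.7 in DR GR-KO, lower in all DR libraries. Its log2 difference was -0.69 in GR-KO (SE 0.15, edgeR adjusted p = 6.9e-04) and -0.55 over all libraries (SE 0.13, adjusted p = 0.0075). The latter was not called by the quasi-likelihood test (adjusted p = 0.13). Among nuclei low in neuronal RNA it was -0.40 and also not called (edgeR adjusted p = 0.12). Pfkp had 141 and 118 CPM in NR GR-Con, 129 and 111 in NR GR-KO, 115 and 123 in DR GR-Con, and 163 and 166 in DR GR-KO, where it was 0.54 higher in DR (log2, adjusted p = 0.0030). Aldoc was 0.43 lower in dark-reared GR-KO (log2 -0.43, adjusted p = 0.046). In GR-KO the quasi-likelihood test also called Gapdh, Pfkp and Aldoc (adjusted p = 0.020, 0.017 and 0.049). DESeq2 called them too (adjusted p = 0.0053, 0.0021 and 0.036). None of the 3 calls in GR-KO held in a fit of all 8 libraries, although the log2 differences stayed at -0.69 for Gapdh, 0.54 for Pfkp and -0.42 for Aldoc. Among nuclei low in neuronal RNA they were also not called, at -0.35 for Gapdh, 0.47 for Pfkp and -0.44 for Aldoc. Ppp1r3d, which was not called in this contrast, stood at 13.2 and 13.2 CPM in DR GR-KO against 7.12 to 9.59 CPM in the other 6 libraries.

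The second question is whether the same genes moved with rearing in other cell types. There, most of the called members were lower in the dark. In fits of the 8 libraries that also held a genotype term, 57 of 432 pairs of a member and a type were called in the 14 types besides astrocytes, 48 lower and 9 higher in DR, against 5.55% of all gene and type pairs called and 2.76% lower. The quasi-likelihood test called 44 (34 lower) and DESeq2 49 (38 lower). Within GR-Con animals 16 of 427 pairs in 14 types were called, 15 of them lower, where 2.4% of all pairs were. Within GR-KO animals 33 of 466 pairs in 17 types were called, 26 lower, where 3.71% of all pairs were. The 17 types add endothelial, SMC-Peri and VLMC cells, and some of the calls lie in VLMC and endothelial cells. The quasi-likelihood test called 2 pairs in GR-Con and 6 in GR-KO, and DESeq2 called 8 and 19. In GR-KO the medians per nucleus were 22827.5 and 29223 UMIs in NR and 14928.5 and 14861 in DR. In GR-Con they were 17759.5 and 15884 in NR and 16968 and 20161 in DR. The part of depth in these calls was not tested. The GR-Con and GR-KO comparisons use separate animals. All types, however, come from the same 8 libraries, so calls in several types are not independent evidence.

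**Figure D4:**
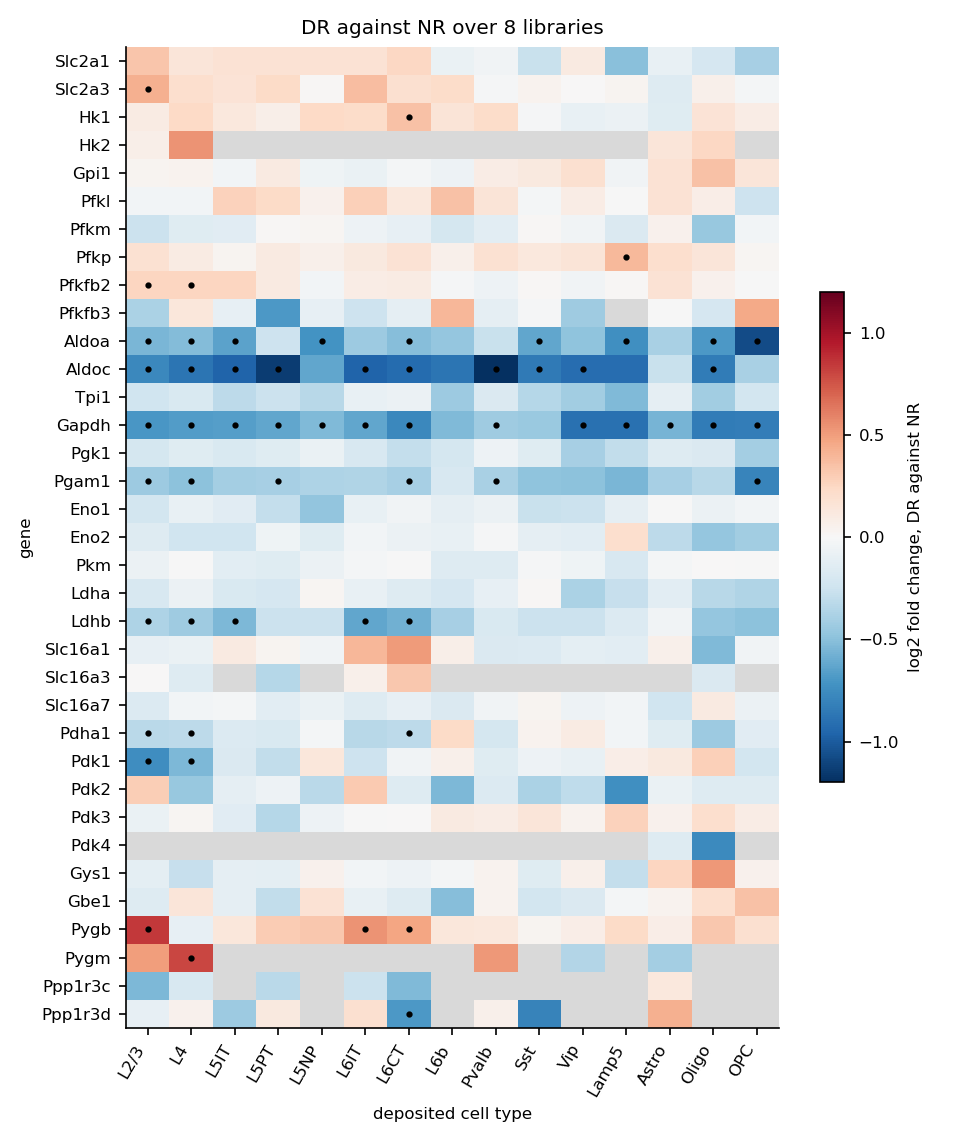
Log2 difference between DR and NR over all 8 libraries for the members (rows) in each fitted cell type (columns), with dots on called pairs and grey where a gene was not tested. Gapdh, Aldoc and Aldoa are lower in most columns, and Pygb is higher in L2/3, L6IT and L6CT neurons.

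Most of the decreases came from Gapdh, Aldoc, Aldoa and Pgam1. In the fits of all 8 libraries, Gapdh was lower in 12 of 14 types, Aldoc in 10, Aldoa in 9, Pgam1 in 6 and Ldhb in 5. Pdha1 was lower in 3, L2/3, L4 and L6CT neurons. In these fits Tpi1, Pgk1 and Eno1 had a negative difference in all 14 types but were called in none, with median log2 differences of -0.28, -0.19 and -0.11. Eno2 (median -0.12) and Pkm (-0.06) were also called in none of them. Within single genotypes, Eno1 was called lower in L5PT neurons of GR-Con animals and Eno2 in oligodendrocytes of GR-KO animals. In L6CT neurons, which project to the thalamus, Gapdh had 23.8 and 21.2 CPM in NR GR-Con, 31.7 and 27.2 in NR GR-KO, 12.4 and 15.9 in DR GR-Con, and 15.0 and 16.5 in DR GR-KO (log2 -0.78, SE 0.12, edgeR adjusted p = 2.8e-08). All NR libraries lay above all DR libraries, and the NR GR-KO libraries were the highest.

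Aldoa in L2/3 neurons had 19.7 and 15.0 CPM in NR GR-Con, 23.5 and 18.8 in NR GR-KO, 11.3 and 13.6 in DR GR-Con, and 13.3 and 14.4 in DR GR-KO (log2 -0.55, SE 0.13, edgeR adjusted p = 4.4e-04). Pgam1, the phosphoglycerate mutase, was lower in L4 neurons, from 9.34 to 15.8 CPM in NR and 7.54 to 8.88 CPM in DR (log2 -0.50, adjusted p = 0.014). Ldhb in L6CT neurons had 28.1 and 27.9 CPM in NR GR-Con, 24.8 and 29.6 in NR GR-KO, 16.3 and 19.6 in DR GR-Con, and 19.1 and 18.6 in DR GR-KO (log2 -0.58, SE 0.10, adjusted p = 2.9e-06). Pdha1 in L2/3 neurons ranged from 10.3 to 12.8 CPM in NR and from 8.72 to 9.84 CPM in DR (log2 -0.32, adjusted p = 0.017). In each of these pairs, chosen among those called, the DR libraries lay below the NR libraries.

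Ribosomal protein genes moved with rearing in the same libraries. The share of UMIs from 83 of them, a list chosen after the data were seen, had a higher median in NR than in DR in 15 of 15 types, and in 6 of these all NR libraries lay above all DR libraries. In L2/3 neurons it was 0.0754% to 0.104% in NR and 0.0708% to 0.0747% in DR. Its part in the decrease of Gapdh, Aldoa, Pgam1, Ldhb and Pdha1 was not tested.

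Aldoc in neurons was close to trace level. In L2/3 neurons it ranged from 4.34 to 6.31 CPM in NR and from 2.40 to 3.89 CPM in DR (log2 -0.78, edgeR adjusted p = 7.6e-04), against 123 to 369 CPM in astrocytes, and a UMI was seen in 8.94% of L2/3 nuclei at a median of 21863 UMIs and in 64.9% of astrocytes at a median of 6107 UMIs. The summed level of 4 other astrocyte genes, Aqp4, Gja1, Slc1a3 and Aldh1l1, none at 0 in L2/3 nuclei of any library, ranged there from 17.1 to 26.4 CPM in NR and from 20.1 to 40.5 CPM in DR. Of 14 types it was lower in all DR than in all NR libraries in 1, the oligodendrocytes, with 89.6 to 99.0 CPM in NR and 59.2 to 79.4 CPM in DR. Their part in the neuronal Aldoc values was not tested. Between genotypes, Aldoc was called in 0 other types. Its difference in GR-KO was negative in 15 of 15 types tested in NR (median log2 -0.34). In DR it was negative in 10 of 13 (median -0.19). One-sided signs over the types were not particular to Aldoc. In NR, Tpi1 was negative in 0 of 14 types, Pgam1 in 0 of 15 and Ldha in 1 of 15 (median log2 0.43). All types come from the same libraries.

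A few neuronal members ran against or beside that decrease. L2/3 neurons had 10 of 34 members called, 3 higher and 7 lower in DR, where 15.9% of all genes were. L4 neurons had 9 of 34 (2 higher, 7 lower) against 9.6%, and L6CT neurons 9 of 32 (2 higher, 7 lower) against 12.5%. Pygb in L2/3 neurons had 16.7 and 16.9 CPM in NR GR-Con, 19.5 and 17.0 in NR GR-KO, 25.0 and 30.4 in DR GR-Con, and 42.0 and 29.9 in DR GR-KO, so that every dark-reared library was higher (log2 0.85, SE 0.14, edgeR adjusted p = 1.6e-07). It was also higher in L6IT (0.54) and L6CT neurons (0.47), whereas in L4 neurons it stayed between 19.1 and 22.4 CPM in all libraries (log2 -0.10, SE 0.09, adjusted p = 0.56). The difference between these types was not tested.

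Pdk1 and Slc2a3 were singled out after their values were seen. Pdk1 in L2/3 neurons had 82.7 and 84.7 CPM in NR GR-Con, 61.7 and 80.2 in NR GR-KO, 47.7 and 55.6 in DR GR-Con, and 42.2 and 40.9 in DR GR-KO, lower in every DR library (log2 -0.74, SE 0.12, edgeR adjusted p = 2.7e-08). In L4 neurons it ran from 46.9 to 60.7 CPM in NR and 33.6 to 39.0 CPM in DR (log2 -0.54, adjusted p = 1.2e-04), and in L6CT neurons from 46.3 to 48.9 and 41.2 to 51.0 CPM (log2 -0.04, SE 0.09, adjusted p = 0.83). Slc2a3 in L2/3 neurons was 0.43 higher in DR (log2, adjusted p = 0.0075), though its NR range of 70.1 to 84.8 CPM touched the DR range of 84.3 to 120 CPM.

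**Figure D5:**
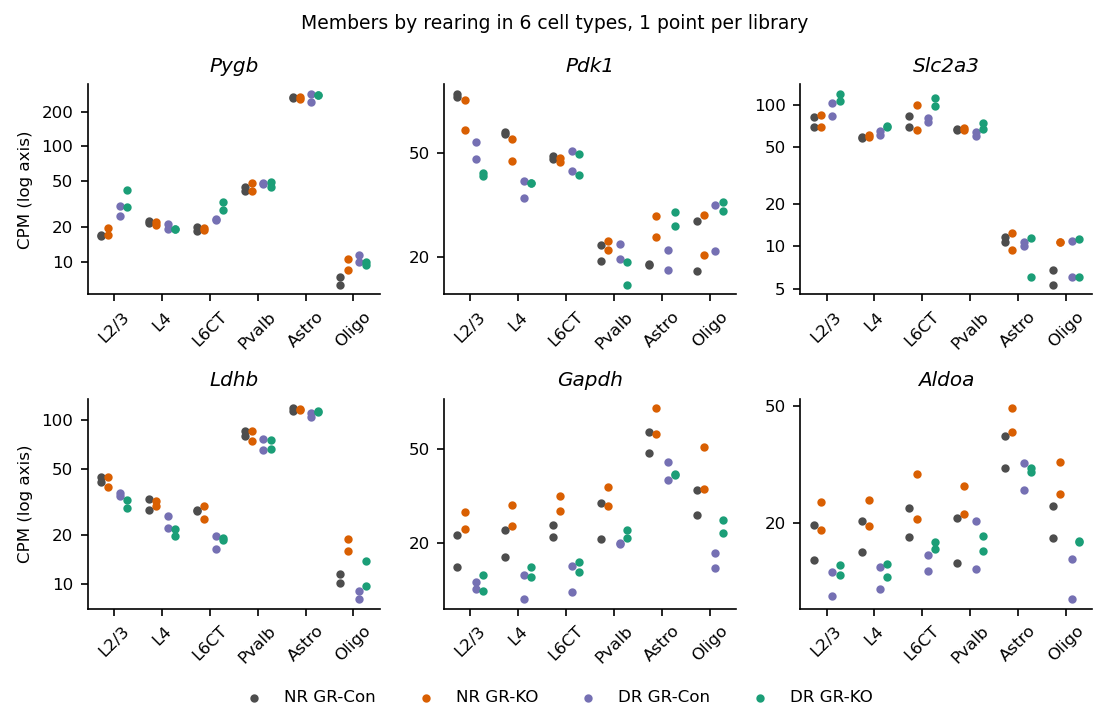
CPM on a log axis of Pygb, Pdk1, Slc2a3, Ldhb, Gapdh and Aldoa in L2/3, L4, L6CT and Pvalb neurons, astrocytes and oligodendrocytes, 1 point per library, coloured by group. Pdk1 and Gapdh are lower and Pygb is higher in the dark-reared libraries of L2/3 neurons.

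Between GR-KO and GR-Con animals few members were called in other types. Under normal rearing 1 of 469 pairs of a member and a type was called in 16 types (0.37% of all pairs), in the dark 3 of 421 (0.496%), and over all libraries 2 of 432 (0.0803%). The quasi-likelihood test called none of them, with 33, 48 and 55 pairs at an unadjusted p under 0.05 in the likelihood ratio test. These unadjusted counts stand without the share of all pairs at that cut, so they are not read as an excess. The interaction was called for 1 of 432 pairs, against 0.166% of all pairs. The members concerned were Gbe1, Pfkfb3 and Slc16a1, named after their values were seen. Gbe1 in L4 neurons had 42.2 and 35.8 CPM in NR GR-Con and 72.8 and 57.5 in NR GR-KO (log2 0.74, SE 0.19, edgeR adjusted p = 0.037), but 74.2 and 45.5 in DR GR-Con and 50.3 and 47.6 in DR GR-KO.

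Pfkfb3 gave most of these calls. In L4 neurons it had 2.43 and 2.60 CPM in NR GR-Con, 5.10 and 3.26 in NR GR-KO, 2.21 and 2.43 in DR GR-Con, and 5.93 and 4.29 in DR GR-KO, higher in all GR-KO libraries (log2 0.94 over all libraries, SE 0.20, edgeR adjusted p = 0.0089). In DR the L4 difference was 1.15 (adjusted p = 5.7e-04), and Slc16a1 was 0.91 higher in the same contrast (adjusted p = 0.0039). In L5PT neurons, which project to the brainstem, Pfkfb3 had 11.5 and 11.7 CPM in NR GR-Con, 9.52 and 10.7 in NR GR-KO, 5.42 and 3.08 in DR GR-Con, and 10.4 and 10.9 in DR GR-KO, so that the DR GR-Con libraries alone were low.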

How the data were processed

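Single-nucleus RNA-seq was performed by the study on V1 nuclei of 8 mice with a 10x 3′ kit. Per the labels, the authors aligned reads to mm10 with Cell Ranger 8.0.1 and analysed nuclei in Seurat 5.3.0. They removed nuclei with very low or very high counts and predicted doublets, and no further doublet call was made here. The deposited values are raw UMI counts per gene and nucleus, with a cell table giving library, sex, cell type and the percent of mitochondrial UMIs, which entered no test. Library names carry no replicate number.

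UMIs were summed per library and type with at least 10 nuclei. Genes passing filterByExpr were scaled by trimmed means (TMM) and tested with the likelihood ratio test of edgeR 4.0.16 in R 4.3.3, the test the study's methods name, and p-values were adjusted by Benjamini-Hochberg within a type. Calls are an adjusted p under 0.05. Each SE was obtained by dividing the log2 fold change by the root of its likelihood ratio statistic. Per-library CPM values carry no TMM factor. Ratios of related genes used a pseudocount of 0.5 UMIs. Scripts were tested on simulated data. Errors are SDs over libraries or SEs of a fit.

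Fits over all libraries used 15 types. Members and lists were chosen with earlier results of these data known. Values per library are given for members called in astrocytes and, except Slc16a7 and Pfkl, for the 3 with the largest change per comparison. For members called in at least 3 other types in one direction, values per library or NR and DR ranges are given in some of those types. Alternatives were the quasi-likelihood F-test, DESeq2 1.42.0, its size factors, no filter, a sex term, 1 fit of all 8 libraries, astrocyte nuclei low in neuronal marker UMIs and leaving out each library. Motifs were searched in RefSeq promoters. Gene positions are those of the GENCODE annotation of the same build.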

Additional observations from a re-analysis of the deposited data

Results flagged for a closer look

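Pfkfb3 in L5PT neurons had a genotype difference that differed between rearing conditions. The effect in NR less the one in DR was -1.60 (log2, SE 0.37, edgeR adjusted p = 0.011), with values of 11.5 and 11.7 CPM in NR GR-Con, 9.52 and 10.7 in NR GR-KO, 5.42 and 3.08 in DR GR-Con, and 10.4 and 10.9 in DR GR-KO. The genotypes differed by 1.36 in DR (adjusted p = 0.0064), which the quasi-likelihood test and DESeq2 did not call (adjusted p = 0.48 and 0.086). The quasi-likelihood test and DESeq2 did not call the interaction (adjusted p = 0.41 and 0.21), and it was called in 4 of 8 fits that each left out 1 library, ranging from -2.12 to -1.23. The female NR GR-KO library held 59 L5PT nuclei, the fewest of any library.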

How the results depend on the processing

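No paired analysis was possible because the deposited library names carry no replicate numbers. They do give sex, and a fit with sex as a term was run. No single called member changed sign under any alternative run. The median log2 difference over all genes between astrocytes and excitatory neurons did, from -0.07 to 0.28 without TMM factors and 0.18 with only the NR GR-Con libraries. Of the summary counts, 78 of 103 values under other settings and 33 of 80 with 1 library left out stayed within 1.5 times the main count. Of 716 values for single results under another setting, 144 lost their call, 68 of them under the quasi-likelihood F-test. The 716 also hold values of the 8 ratios of related genes, which were scored only for a change of sign. Of single called members, 266 of 776 values lost their call with 1 library left out. DESeq2 gave no adjusted p for 13. The cause of these losses was not tested.

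In astrocytes, 4 members called between genotypes in NR became 7 with a sex term and 2 among nuclei low in neuronal RNA. The 2 called in DR became 0 under the quasi-likelihood test and 1 under DESeq2. The 3 called for rearing in GR-KO became 0 in 1 fit of all libraries and 0 among low-neuron nuclei, and the 1 over all libraries became 0 under the quasi-likelihood test and among low-neuron nuclei. In other types, the 1 genotype call in NR became 0 under the quasi-likelihood test, 4 with a sex term and 0 in 1 fit of all libraries. The 3 in DR became 0 (quasi-likelihood) and 9 (sex term). The 16 rearing calls in GR-Con became 2 (quasi-likelihood) and 8 (DESeq2), and the 33 in GR-KO became 6 (quasi-likelihood), 19 (DESeq2) and 53 (sex term). The 1 interaction call became 0, 0 and 2 under these 3 settings. The 2 genotype calls over all libraries became 0 (quasi-likelihood), 1 (DESeq2), 1 (its size factors) and 1 (no filter).

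With 1 library left out, which assumes that a lone library varies like the other group, astrocyte counts ran from 3 to 3 for genotype in NR, 0 to 11 in DR (11 without the female and 10 without the male DR GR-Con library, 0 without either DR GR-KO library), 0 to 4 for rearing in GR-Con (4 without the male DR GR-Con library), 0 to 6 in GR-KO (6 without the female NR GR-KO library), 0 to 3 for the interaction, 3 to 6 for genotype over all libraries and 0 to 3 for rearing over all libraries. In other types they ran from 0 to 14 for genotype in NR (14 without the female NR GR-KO library), 0 to 13 in DR (13 without the female DR GR-Con library), 2 to 30 for rearing in GR-Con (2 without the male NR GR-Con library), 4 to 51 in GR-KO (51 without the female NR GR-KO and 4 without the male DR GR-KO library), 0 to 3 for the interaction, 0 to 16 for genotype over all libraries and 33 to 55 for rearing over all libraries. With 2 animals per group, counts within 1 arm therefore depend on single libraries.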
